A study of Arabidopsis thaliana with 12 samples.

Results

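The auxin response of Arabidopsis hypocotyls was compared between 2 ages, to find the genes that responded differently in young and in mature hypocotyls. The hypocotyl is the stem of the seedling below its seed leaves. All 12 arrays of the series enter this comparison, 3 in each of 4 groups. Per the labels, plants of ecotype Col-0 had grown in full-strength MS medium. Young hypocotyls were 7 days old and mature hypocotyls 35 days old, and each age was sampled without auxin and after 1 day of auxin. The labels call the 3 arrays of each group biological replicates. Neither the auxin nor its dose is named, the number of hypocotyls per sample is not given, and nothing is said of how controls spent the day of treatment. By its title the series concerns the capability to form callus, which is a mass of dividing cells, and its change with age.

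The members are the probe sets whose response to auxin differed between the ages. The response at an age is the level with auxin minus the level without it, and the difference of the responses is the mature minus the young response. The deposited values are RMA values that were centred on the median of each probe set over the 12 arrays, so they show differences between arrays and no absolute level. All values are read as log2. A probe set was called at a limma adjusted p under 0.05. Of 22746 probe sets tested, 7962 were called (35.0%), 3973 with the mature response above the young one (17.5%) and 3989 with it below (17.5%). They include 4170 of the 13513 probe sets with 1 gene (30.9%), which represent 4142 genes, 606 of the probe sets carrying a gene symbol. Of the 13513, 15.6% were called above and 15.2% below, which are the shares to set beside the list counts. Genes are named only for probe sets with 1 gene. At the threshold, the last called of these was Hop2 (−0.303 ± 0.112 SE, adjusted p = 0.04989) and the first not called was AT4G19830 (0.391 ± 0.144, adjusted p = 0.05013).

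Auxin acts within minutes through the TIR1 and AFB receptors, which lead to the breakdown of AUX/IAA repressors and so free the auxin response factors. Early targets include the AUX/IAA genes themselves and the GH3 genes, whose enzymes join auxin to amino acids and lower its free level. In the hypocotyl and the root, auxin starts divisions of pericycle-like cells next to the xylem, which give rise to lateral roots and, on callus-inducing medium, to callus. A hypocotyl elongates while it is young. It later thickens by division of the vascular cambium and forms wood and a suberised outer tissue.

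The arrays of a group resembled each other, with Pearson correlations between 0.91 and 0.964 across probe sets. Control signals set 4 arrays apart. Arrays 1 and 2 of both untreated groups had bioC spike-in levels from −1.568 to −1.515. The third array of those groups had 0.733 (young) and 0.467 (mature), and the 6 arrays with auxin had −0.134 to 0.205. The 25S ribosomal RNA control had a mean of −1.936 in the young and −1.913 in the mature untreated group, and of 2.252 and 1.203 in the groups given auxin. The 3′ minus 5′ signal of GAPDH had means of 0.4 and −0.092 in young hypocotyls and of 0.172 and −0.15 in mature ones. Their part in the differences below was not tested. Without the 4 arrays of low bioC signal each untreated group holds 1 array, which is assumed to vary like the other groups. Calls then became fewer over all probe sets, so a lower count of a list in that fit is not a result about the list. In that fit 4336 differences were called, and 4177 of these belong to the 7962 with the same sign. Of the 7962, 7960 kept their sign. Of the 2853 that differed by 2-fold or more, 2555 were called again. Because a hypocotyl is a mixture of tissues, fewer cells of a type and less RNA per cell cannot be told apart. Of 35 marker genes of cell types, 2 had a probe set of their own, and the difference of the responses was not called for either (EXPA7 of root hairs, 0.232, and FMA of guard cells, −0.272). The hypocotyl identity of the samples was therefore not checked by markers.

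Differences of either sign were about equally frequent, and the responses behind them were of several kinds. Over all 22746 probe sets, the young response was called in 59.1% (32.7% rises and 26.4% falls) and the mature response in 59.9% (31.8% and 28.1%). In 1897 of the 7962 probe sets auxin raised the level at both ages (23.8%), and the rise was larger in mature hypocotyls in 1005 and smaller in 892. In 2104 auxin lowered the level at both ages (26.4%), and the mature fall was smaller in 1326 and larger in 778. The median response of those 1326 was −2.327 in young and −1.187 in mature hypocotyls. A further 1666 probe sets responded in young hypocotyls alone, 930 with a rise and 736 with a fall. In mature hypocotyls alone 1487 responded, 634 with a rise and 853 with a fall. In 734 the responses were called in opposite directions, and 74 were called at neither age.

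**Figure D1:**
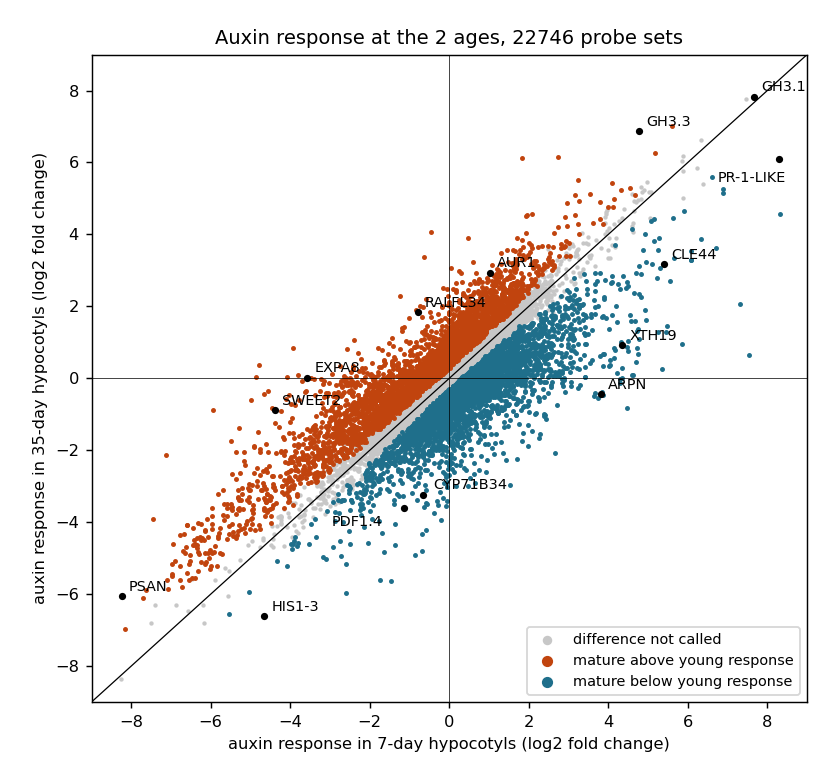
Response to auxin (log2 fold change, with minus without auxin) of 22746 probe sets in 7-day hypocotyls on the x axis and in 35-day hypocotyls on the y axis; the diagonal marks equal responses. The 3973 orange points lie above it and the 3989 blue points below it, and GH3.1 at the upper right lies close to it.

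For most called probe sets the ages differed before auxin. Over all probe sets the untreated level was called in 45.7% (22.7% higher and 22.9% lower in mature hypocotyls) and the level after auxin in 27.3% (14.2% and 13.0%). Leaving out the 4 low-bioC arrays cannot test which of these shares is larger. It keeps 1 array in each untreated group but 3 in each group given auxin, so untreated differences are harder to call. The difference of the responses equals the age difference with auxin minus the age difference without it, and the 3 measures share arrays, so the classes below describe where a called difference came from and are not separate evidence. In 4025 of the 7962 (50.6%) the untreated levels alone differed between the ages, with a median absolute difference of 0.698 without auxin and 0.122 with it. Of these, 2141 were lower and 1884 higher in mature hypocotyls before auxin. In 1137 (14.3%) the levels after auxin alone differed, with medians of 0.127 without and 0.619 with auxin. In 2532 (31.8%) both differed, 1465 with the same age higher both times and 1067 with the order of the ages turned. Among the 1465 the gap between the ages was smaller after auxin in 1077 and larger in 388. In 268 (3.37%) neither difference was called. Over all 22746 probe sets, the untreated level alone differed in 26.5%, the level after auxin alone in 8.14%, both in 19.1% and neither in 46.2%. Without the 4 arrays of low bioC signal 5307 of the 7962 stayed in their class.

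**Figure D2:**
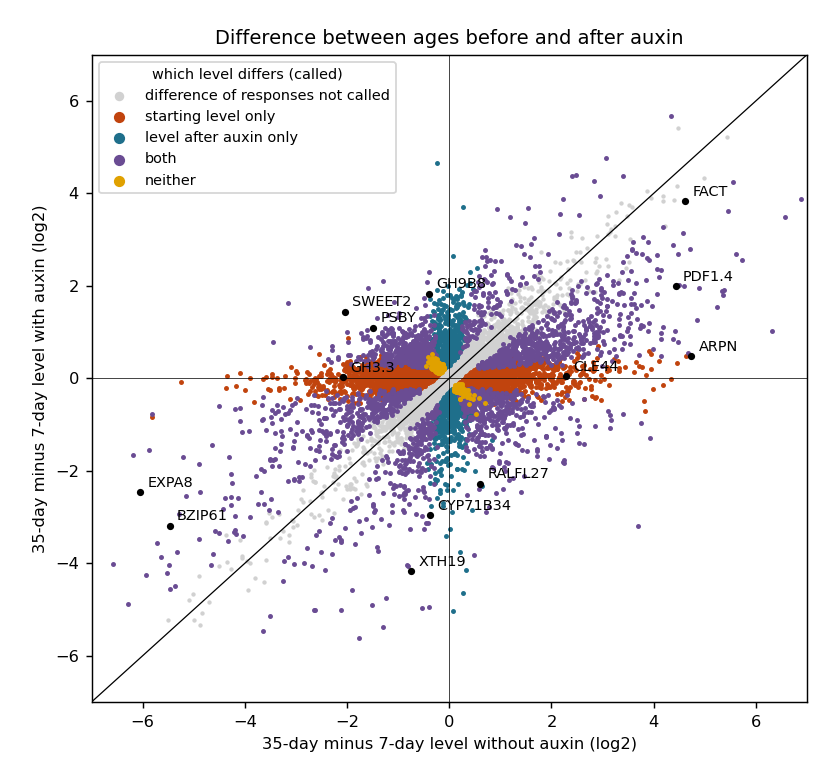
Age difference (35-day minus 7-day, log2) without auxin on the x axis and with auxin on the y axis, for 22746 probe sets. Grey points have no called difference of the responses, and colours mark which level differed; the orange band along the x axis holds the 4025 probe sets whose untreated level alone differed, such as GH3.3 and CLE44.

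Genes of auxin inactivation were split, with a larger mature response for GH3.3 and WES1. Of the 5 probe sets of GH3 enzymes, 2 had a mature response above the young one and 1 had it below. GH3.3 lay at −2.68, −2.70 and −2.09 on the young untreated arrays and at 2.18, 2.36 and 2.28 with auxin, and at −3.97, −4.49 and −5.27 on the mature untreated arrays and at 2.09, 2.51 and 2.30 with auxin. The mature arrays were all below the young ones before auxin and overlapped with them after it. The response was 4.76 ± 0.25 in young and 6.88 ± 0.25 in mature hypocotyls, a difference of 2.11 ± 0.36 (SE, n = 3 per group, limma adjusted p = 0.00042), or 4.33-fold, and 3.21 without the 4 arrays. WES1, also known as GH3.5, also started lower in mature hypocotyls, but stayed lower on every array with auxin. It lay at −1.04, −1.56 and −1.89 and −3.82, −4.01 and −3.79 on the young and mature untreated arrays, and at 1.68, 1.68 and 1.63 and 1.24, 1.35 and 1.04 with auxin. The difference of its responses was 1.93 ± 0.23 (adjusted p = 2.4e-05), and the age difference was −2.38 ± 0.16 before and −0.45 ± 0.16 after auxin (limma adjusted p = 0.055), which was called without the 4 arrays of low bioC signal.

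Other GH3 genes did not share this pattern. GH3.17 rose with auxin in young hypocotyls (1.03 ± 0.09) and had a mature response of 0.14 ± 0.09, which was not called; it was higher in mature hypocotyls before auxin (0.60 ± 0.09) and lower after it (−0.30 ± 0.09). GH3.9 had a difference of −0.04 ± 0.11, and GH3.1 one of 0.17 ± 0.15 (limma adjusted p = 0.41), against responses of 7.66 and 7.83. Under quantile normalisation of the deposited values the difference for GH3.1 was 1.66 and was called, so the statement on GH3.1 depends on the scaling.

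Of 7 AUX/IAA probe sets 1 was called for the difference of the responses. It was IAA30, with rises of 2.96 ± 0.12 in young and 2.46 ± 0.12 in mature hypocotyls (difference −0.50 ± 0.17, adjusted p = 0.03). That call was lost under quantile normalisation and without the 4 arrays. IAA29 had a difference of 0.21 ± 0.18. Its age difference was −1.69 ± 0.13 before and −1.48 ± 0.13 after auxin, so it was lower in mature hypocotyls throughout. The transcription factors of lateral root and callus initiation showed no called difference either: it was −0.37 ± 0.16 for LBD16 (limma adjusted p = 0.088), 0.30 ± 0.17 for LBD29 and 0.51 ± 0.38 for PUCHI (adjusted p = 0.19 and 0.35). Their young responses were 4.59, 6.33 and 4.82. LBD29 and PUCHI were called under quantile normalisation, with 1.17 for both. LBD16 was called when array 1 of the young or array 3 of the mature untreated group was left out, and LBD29 without array 3 of the mature auxin group. HAT2, an auxin-induced homeodomain factor, rose by 1.28 ± 0.12 in young and 2.81 ± 0.12 in mature hypocotyls (difference 1.54 ± 0.17, adjusted p = 1.1e-05). Like GH3.3 it started lower in mature hypocotyls (−1.73 ± 0.12), and its age difference after auxin was −0.19 ± 0.12, not called. None of the 4 auxin synthesis genes was called for the difference.

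A type-A cytokinin response regulator showed a different kind of age dependence. Type-A regulators are rapidly induced by cytokinin and dampen its signal. RR16 lay at 2.21, 3.13 and 2.01 on the young untreated arrays and at 0.01, 0.42 and 0.37 on the mature ones. With auxin it lay at −0.24, −0.28 and −0.32 in young and −0.01, −0.24 and −0.32 in mature hypocotyls, where the ages overlapped. It fell in young hypocotyls by 2.73 ± 0.22 and had a mature response of −0.46 ± 0.22, which was not called. The difference was 2.27 ± 0.31 (limma adjusted p = 6.6e-05). The related ARR15 had a difference of 0.52 ± 0.24 (adjusted p = 0.11), and of the 6 cytokinin probe sets 2 were called, both with the mature response above the young one, RR18 being the other (0.46 ± 0.13). The RR18 call was lost without the 4 arrays.

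Signalling peptides differed by gene. Of 18 probe sets 2 had a mature response above the young one and 6 had it below, and 2 and 2 were called without the 4 arrays. CLE44 encodes the TDIF peptide, which keeps the stem cells of the vascular cambium dividing. CLE44 lay at −3.85, −3.81 and −3.85 and −1.41, −1.49 and −1.76 on the young and mature untreated arrays, and at 1.41, 1.54 and 1.76 and 1.66, 1.59 and 1.61 with auxin. Mature hypocotyls thus started higher and reached the same range, with a rise of 3.17 ± 0.10 against 5.40 ± 0.10 in young ones (difference −2.23 ± 0.15, adjusted p = 1.8e-07). RALF peptides are small secreted peptides that act on cell growth. RALFL27 rose in young hypocotyls (2.89 ± 0.20), where it lay at 1.99, 2.40 and 2.42 with auxin, against 0.02, 0.16 and −0.20 in mature ones. Its mature response was −0.00 ± 0.20, and without the 4 arrays only its level after auxin differed between ages. RALFL34 went in opposite directions. It lay at 0.88, 0.88 and 0.79 in young untreated hypocotyls and at 0.28, −0.11 and 0.01 with auxin. In mature ones it lay at −1.69, −1.79 and −1.95 untreated and −0.01, −0.26 and 0.36 with auxin, so the ages differed before auxin and overlapped after it. RALFL24 did the same, with responses of −0.39 and 1.56. In young hypocotyls both fell and in mature hypocotyls both rose.

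**Figure D3:**
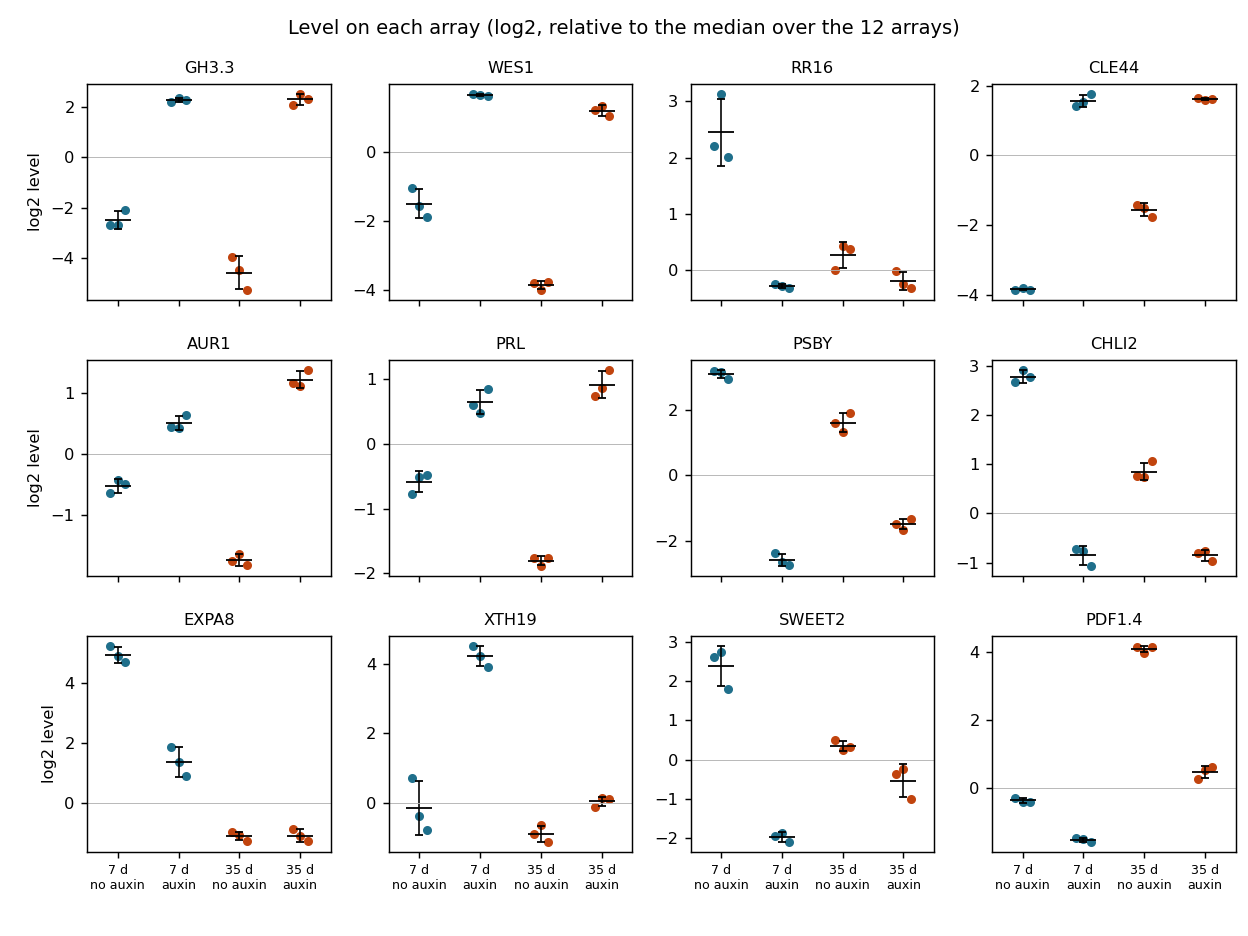
Level of 12 genes on each of the 12 arrays (log2, relative to the median of the probe set), with blue points for 7-day and orange points for 35-day hypocotyls, horizontal bars for group means and error bars for the SD of 3 arrays. GH3.3, CLE44 and CHLI2 differed between ages before auxin and overlapped after it. The arrays of XTH19 overlapped before auxin, with a smaller called difference, and lay far apart after it.

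Most cell division genes rose with auxin at both ages, and more so in mature hypocotyls, where most started lower. Of 7 probe sets of G2 and mitosis, 6 had a mature response above the young one and 1 had it below. Their median difference was 1.129, against 0.053 over all 13513 probe sets with 1 gene. Without the 4 arrays these medians were 1.033 and 0.029. The Aurora kinases, which phosphorylate histone H3 and act at the spindle and the cell plate, ended above the young level. AUR1 lay at −0.64, −0.42 and −0.48 on the young and at −1.74, −1.62 and −1.81 on the mature untreated arrays. After auxin its values were 0.44, 0.42 and 0.64 in young and 1.15, 1.11 and 1.37 in mature hypocotyls. The order of the ages was thus turned on every array, with a response of 1.02 ± 0.10 in young and 2.93 ± 0.10 in mature hypocotyls (difference 1.92 ± 0.14, adjusted p = 3.9e-07). AUR2 and AUR3 did likewise, with differences of 2.02 ± 0.16 and 1.67 ± 0.18, age differences of −1.28 and −1.01 before auxin, and of 0.73 and 0.66 after it. The spindle checkpoint genes BUB3.1, BUB3.2 and BUBR1 had differences of 1.13, 0.71 and 0.97, and that of BUB3.2 was not called without the 4 arrays. ATMAP65-6, a microtubule-associated protein, was the exception. It fell at both ages and more in mature hypocotyls (−0.80 ± 0.14), a call lost without the 4 arrays.

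DNA replication genes and some histone genes moved in the same way. All 3 measured replication probe sets were called with the mature response above the young one. PRL, the MCM7 subunit of the replicative helicase, lay at −0.77, −0.51 and −0.48 and −1.76, −1.89 and −1.77 on the young and mature untreated arrays. The ages overlapped after auxin, at 0.60, 0.48 and 0.85 and 0.74, 0.86 and 1.14. Its difference was 1.49 ± 0.17 (limma adjusted p = 1.8e-05). POLA3 and ICU2, both of the DNA polymerase alpha and primase complex, had differences of 1.10 ± 0.14 and 0.95 ± 0.19. For all 3 the untreated level alone differed between ages. Of 6 core histone probe sets 2 were called: HTR12, the histone H3 of centromeres (1.39 ± 0.21), and HTB2, an H2B histone (0.96 ± 0.17). Both were higher in mature than in young hypocotyls after auxin (0.64 ± 0.15 and 0.52 ± 0.12). The H2B genes HTB1, HTB4 and HTB11 rose with auxin at both ages, and their differences of 0.45, 0.29 and 0.18 were not called.

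Cytoskeleton genes were mostly lower in mature hypocotyls at the start. Of 9 tubulin and actin probe sets 5 had a mature response above the young one and 0 had it below. TUB7, a beta-tubulin, rose by 0.65 ± 0.12 in young and 1.73 ± 0.12 in mature hypocotyls (difference 1.08 ± 0.16). ACT11, an actin, rose by 0.57 ± 0.08 and 1.55 ± 0.08, and it was lower in mature hypocotyls with and without auxin (−1.98 ± 0.08 before it). TUB6 and TUB5 were lower in mature hypocotyls with and without auxin, and they fell with auxin in young hypocotyls (−1.04 ± 0.11 and −0.62 ± 0.09) and had mature responses of −0.23 ± 0.11 and −0.01 ± 0.09. IQD and TRM proteins bind microtubules. Of their 29 probe sets 9 were called above and 6 below. TRM28 was the extreme, with values of 2.65, 2.83 and 2.62 in young and 0.36, 0.35 and 0.52 in mature hypocotyls after auxin, from untreated levels that overlapped.

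Most genes of photosynthesis and chlorophyll synthesis fell with auxin at both ages, and fell less in mature hypocotyls, where most started lower; HEMA2 and HEMA3, of the first steps toward chlorophyll, did not fall at both ages, and LHCB4.3 had no called difference. Of 7 probe sets of nuclear photosystem and antenna genes 6 were called above, with a median difference of 1.602, and all 4 of the Calvin cycle and photorespiration were, with a median of 1.677. Of the 8 of chlorophyll synthesis 7 were called above, with a median of 1.048. None of these 19 was called below. Without the 4 arrays 6, 4 and 5 were called. PSAN, a subunit of photosystem I, lay at 4.80, 4.93 and 4.75 and 2.73, 2.65 and 3.34 on the young and mature untreated arrays. The ages overlapped after auxin, at −3.42, −3.29 and −3.51 and −3.03, −3.75 and −2.65. Its response was −8.24 ± 0.23 in young and −6.06 ± 0.23 in mature hypocotyls (difference 2.18 ± 0.32, adjusted p = 0.00013).

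The light-harvesting genes LHCB4.1 and LHCB4.2 had differences of 1.42 ± 0.17 and 1.60 ± 0.29, the latter 0.87 without the 4 arrays, and that of LHCB4.3 was 0.25 ± 0.17, not called. PSBY, a small subunit of photosystem II, differed at the end as well. It lay at −2.38, −2.64 and −2.75 in young and −1.48, −1.66 and −1.33 in mature hypocotyls with auxin, so it was lower in mature hypocotyls before auxin (−1.49 ± 0.14) and higher after it (1.10 ± 0.14). PRK and SBPASE, enzymes of the Calvin cycle, had differences of 1.81 ± 0.22 and 2.12 ± 0.23, and the Rubisco activase RCA one of 1.54 ± 0.20. In chlorophyll synthesis CHLI2, a subunit of magnesium chelatase, lay at 2.67, 2.92 and 2.77 and 0.76, 0.73 and 1.06 before auxin and at −0.73, −0.76 and −1.07 and −0.81, −0.76 and −0.97 after it. The age difference of CHLI2 went from −1.93 ± 0.12 to 0.00 ± 0.12. CHLM, the next enzyme of that branch, turned from −1.49 ± 0.13 to 0.53 ± 0.13.

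Genes encoded in the organelles showed smaller differences. Of 69 plastid-encoded probe sets, 62 fell with auxin in young and 57 in mature hypocotyls. The difference of the responses was called above in 5 and below in 0, with a median of 0.167, and in 0 and 0 without the 4 arrays. Their largest were psbD of photosystem II (0.94 ± 0.25, 0.58 without the 4 arrays) and ccsA of cytochrome assembly (0.81 ± 0.29). The ccsA call was also lost with the array medians set equal and on leaving out any of 7 single arrays, and both calls were lost under quantile normalisation. Of 23 mitochondrion-encoded probe sets 9 were called below and 0 above, with a median of −0.404, and 3 without the 4 arrays. In mature hypocotyls 15 of the 23 fell with auxin, and in young ones 11. The 3 called probe sets of nad1, a subunit of respiratory complex I, had differences of −1.22, −0.96 and −0.39, and the first and the last of these were not called without the 4 arrays. The 25S ribosomal RNA control given above rose with auxin at both ages, and its part in these levels was not tested.

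**Figure D4:**
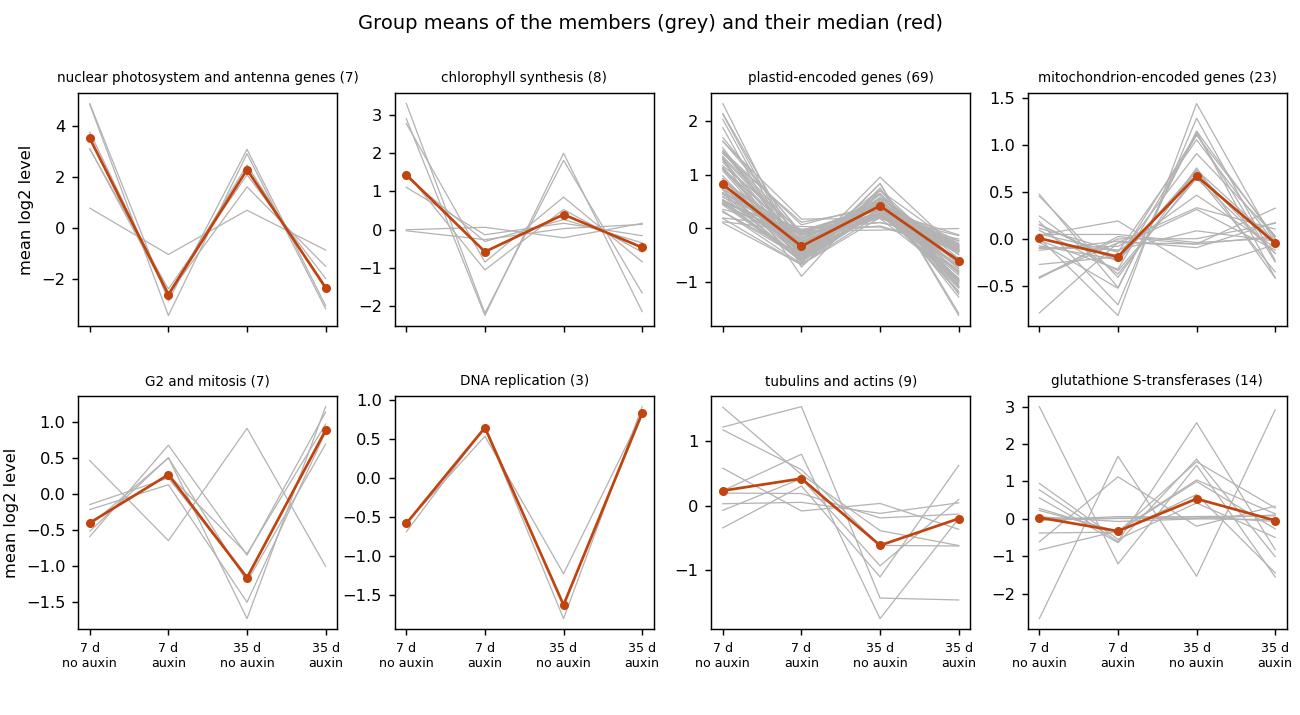
Mean log2 level of each probe set of 8 gene lists in the 4 groups (grey lines, 3 arrays per group) and the median over the list (red), relative to the median of each probe set over the 12 arrays. Photosystem genes fall at both ages from a lower mature start, mitosis and replication genes rise from a lower mature start, and mitochondrion-encoded genes start higher in mature hypocotyls.

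Cell wall genes differed within each family. Of 18 expansin probe sets, which encode wall-loosening proteins, 5 were called above and 2 below. EXPA8 lay at 5.22, 4.89 and 4.69 on the young untreated arrays and at 1.86, 1.35 and 0.87 with auxin. In mature hypocotyls it lay at −0.99, −1.09 and −1.27 without and −0.87, −1.13 and −1.30 with auxin. It fell by 3.57 ± 0.21 in young hypocotyls, the mature response was 0.02 ± 0.21, and the ages remained apart with auxin (−2.46 ± 0.21, adjusted p = 7.1e-07). EXPA15 was its opposite: it lay at 0.09, −0.15 and 0.13 in young and 1.58, 1.60 and 1.39 in mature hypocotyls with auxin and overlapped without it. EXPA15 rose in mature hypocotyls alone (1.76 ± 0.12). EXPA9 and EXPA4 rose at both ages and rose less in mature hypocotyls (−1.08 ± 0.15 and −1.01 ± 0.19), with −0.64 for EXPA4 without the 4 arrays.

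Among 10 xyloglucan endotransglucosylase probe sets, whose enzymes cut and rejoin wall xyloglucan, 3 were called above and 4 below, and 1 and 3 without the 4 arrays. XTH19 lay at 0.73, −0.37 and −0.78 and −0.89, −0.64 and −1.11 on the young and mature untreated arrays, where the ages overlapped. With auxin it lay at 4.50, 4.22 and 3.91 in young and −0.11, 0.13 and 0.11 in mature hypocotyls, far apart. The rise was 4.35 ± 0.29 in young and 0.93 ± 0.29 in mature hypocotyls, a 10.7-fold difference (−3.42 ± 0.40, adjusted p = 2e-05). By the test both levels of XTH19 differed between the ages, the untreated one being lower in mature hypocotyls despite the overlap. Without the 4 arrays, where each untreated group holds 1 array, only its level after auxin differed. XTH18 and XTH33 also rose less in mature hypocotyls (−2.67 ± 0.24 and −2.22 ± 0.27), whereas XTH20 rose at both ages, with a difference of −0.20 ± 0.21 that was not called. XTH16 fell in young hypocotyls (−1.14 ± 0.21) and rose in mature ones (0.66 ± 0.21). XTH18 and XTH19 are close relatives, and how far their probe sets share signal was not tested.

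Of 5 pectin enzyme probe sets 2 were called, both below. The pectin methylesterase gene PMEPCRF rose in young hypocotyls (1.38 ± 0.11) and fell in mature ones (−1.23 ± 0.11), and ATPMEPCRB rose in young hypocotyls (2.08 ± 0.13) with a mature response of −0.13 ± 0.13. GH9B8, an endoglucanase gene of family GH9, rose in mature hypocotyls alone. It lay at 1.59, 1.84 and 2.08 there with auxin and at 0.00, 0.02 and −0.00 in young ones, and its young untreated arrays were uneven, at −0.81, 0.93 and −0.61. Of 34 probe sets of cellulose and secondary wall synthesis 5 were called above and 11 below, and 2 and 8 without the 4 arrays. TBL genes, a family that includes wall acetyltransferases, make up 22 of the 34 probe sets, of which 1 was called above and 8 below, led by TBL38 (−2.15 ± 0.16). IRX15 and GUT2, which act in xylan synthesis, were also below (−0.67 ± 0.21, −1.02 without the 4 arrays, and −0.61 ± 0.15), and both were lower in mature hypocotyls after auxin. CSLA03, a mannan synthase gene, fell in young hypocotyls (−1.40 ± 0.16) and rose in mature ones (0.60 ± 0.16).

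Of 5 probe sets of lignin and phenylpropanoid synthesis 3 were called below and 0 above, and 1 was without the 4 arrays. CCR2, of monolignol synthesis, rose in young hypocotyls (1.00 ± 0.14) with a mature response of −0.02 ± 0.14. CCOAMT fell at both ages and fell more in mature hypocotyls (−0.95 ± 0.24), and it was higher in mature hypocotyls with and without auxin. That difference was not called without the 4 arrays or under quantile normalisation. UGT72E2, which adds glucose to monolignols, rose in young hypocotyls (2.25 ± 0.18), started higher in mature ones (2.47 ± 0.18), and had a mature response of −0.05 ± 0.18. FACT, a transferase linked to suberin, was higher in mature hypocotyls without (4.62 ± 0.11) and with auxin (3.83 ± 0.11). It rose slightly in young and fell slightly in mature hypocotyls, and the difference of −0.79 ± 0.16 was −0.21 and not called under quantile normalisation.

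Of 19 sugar transporter probe sets 5 were called above and 3 below, against 15.6% and 15.2% over all probe sets with 1 gene, and 3 and 2 without the 4 arrays. SWEET2, a glucose transporter of the vacuole, lay at 2.63, 2.75 and 1.81 and 0.49, 0.23 and 0.33 on the young and mature untreated arrays, and at −1.96, −1.87 and −2.11 and −0.38, −0.23 and −1.01 with auxin. The order of the ages was turned on every array. SWEET2 fell by 4.38 ± 0.23 in young and by 0.89 ± 0.23 in mature hypocotyls, a difference of 3.49 ± 0.32 (adjusted p = 2.3e-06). SWEET11, a sucrose exporter of phloem loading, fell at both ages and less in mature hypocotyls (1.99 ± 0.27). SWEET9, known for nectar secretion, rose at both ages and less in mature hypocotyls (−1.89 ± 0.17), from untreated levels that did not differ by the test (−0.28 ± 0.12). APL3, a subunit of the enzyme that makes ADP-glucose for starch, had the same form. It lay between 2.83 and 3.29 in young and between 0.50 and 1.41 in mature hypocotyls with auxin, and its age difference before auxin was 0.04 ± 0.21.

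Of 8 probe sets of senescence and starvation 4 were called above and 3 below, and 2 and 3 without the 4 arrays. Among them are 3 genes of leucine breakdown. MCCA fell by 4.85 ± 0.17 in young and by 2.50 ± 0.17 in mature hypocotyls (difference 2.34 ± 0.24). MCCB, the other subunit of the same carboxylase, and IVD of the preceding step also fell less in mature hypocotyls (0.86 ± 0.18 and 0.68 ± 0.16), but neither call was kept without the 4 arrays (0.55 and 0.36). Among regulators of leaf senescence, WRKY6 and WRKY53 rose at both ages and rose less in mature hypocotyls (−1.79 ± 0.19 and −1.41 ± 0.24), where they started higher. SAG29 rose more in mature hypocotyls (1.30 ± 0.45), a call lost on leaving out any of 8 single arrays. Of 10 probe sets of autophagy genes 4 were called below and 1 above, and 2 and 0 without the 4 arrays.

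Among genes of detoxification the lists differed. Of 14 glutathione S-transferase probe sets 7 were called below and 2 above, with a median of −0.459, and 6 and 2 without the 4 arrays. GSTU26 fell by 1.38 ± 0.12 in young and by 3.39 ± 0.12 in mature hypocotyls, where it started higher (1.80 ± 0.12). Of 24 cytochrome P450 probe sets 6 were called below and 0 above, with a list median of 0.086; the CYP71B subfamily makes up 19 of the 24 and holds all 6. CYP71B34 lay at −3.40, −2.95 and −3.06 with auxin in mature hypocotyls and at −0.28, 0.01 and −0.28 in young ones. CYP71B34 fell by 3.24 ± 0.12 in mature and by 0.67 ± 0.12 in young hypocotyls. CYP71B23 rose in young hypocotyls (0.55 ± 0.16) and fell in mature ones (−1.22 ± 0.16). Of 49 UDP-glycosyltransferase probe sets 11 were called below and 8 above, with a median of 0.02 against 0.053 over all probe sets with 1 gene, and 8 and 4 were called without the 4 arrays.

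Defence, stress and glucosinolate genes were mixed. Of 14 defence probe sets 4 were called below and 2 above. Of the 2 above, 1 is PDF1B (0.76), a peptide deformylase gene that the list took in by its symbol. PDF1.4, a defensin gene, lay at −0.28, −0.41 and −0.39 and 4.12, 3.96 and 4.13 on the young and mature untreated arrays, and at −1.46, −1.50 and −1.58 and 0.28, 0.53 and 0.62 with auxin. Mature hypocotyls stayed higher on every array, while the gap shrank (4.43 ± 0.10 to 1.99 ± 0.10). PR-1-LIKE rose at both ages, by 8.31 ± 0.15 in young and 6.11 ± 0.15 in mature hypocotyls. THI2.2, a thionin gene, fell in young hypocotyls alone (difference 2.07 ± 0.41, 1.09 and not called without the 4 arrays). Of 13 dehydration and cold probe sets 4 were called below and 0 above, and 1 and 1 without the 4 arrays. HIS1-3, a linker histone induced by drought, fell at both ages and more in mature hypocotyls (−1.97 ± 0.14). Of 26 probe sets of glucosinolate metabolism and beta-glucosidases 8 were called below and 6 above. GTR2, a glucosinolate transporter, rose in young hypocotyls (1.21 ± 0.08) and fell in mature ones (−0.90 ± 0.08). BGLU45 and BGLU46, beta-glucosidases that release monolignols, went apart, with differences of −1.72 ± 0.28 and 1.38 ± 0.16.

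Hormone receptors and transcription factors added further cases. GID1B, a gibberellin receptor, and BRL1, a brassinosteroid receptor of vascular tissue, rose at both ages, rose less in mature hypocotyls (−1.71 ± 0.14 and −1.42 ± 0.18) and started higher there (2.66 ± 0.10 and 1.79 ± 0.12). GID1C fell at both ages and fell more in mature hypocotyls (−0.53 ± 0.14, not called without the 4 arrays), and GID1A had a difference of −0.31 ± 0.13, not called. Of 14 bZIP factor probe sets 7 were called below and 3 above, and 4 and 3 without the 4 arrays. BZIP61 and BZIP34 were lower in mature hypocotyls without auxin (−5.47 ± 0.21 and −2.57 ± 0.13) and with it (−3.19 ± 0.21 and −0.76 ± 0.13). In young hypocotyls they fell by 2.66 ± 0.21 and by 1.45 ± 0.13. Called differences were 1 above and 1 below among 42 MADS-box probe sets, 0 among 12 of RNA polymerase subunits and 0 among 7 of glutamate receptor-like channels. Over all probe sets with 1 gene 15.6% were called above and 15.2% below. Other lists held 3 above and 9 below among 29 serine carboxypeptidase-like proteins, 1 and 4 among 8 aldehyde dehydrogenases, 6 and 7 among 33 ubiquitin enzymes, and 2 and 4 among 15 tetraspanins. These became 1 and 3, 0 and 1, 3 and 3, and 1 and 2 without the 4 arrays, where 1 RNA polymerase probe set was called above and the MADS-box call below was lost. All 12 RNA polymerase probe sets rose with auxin at both ages, with median responses of 1.169 in young and 1.265 in mature hypocotyls.

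**Figure D5:**
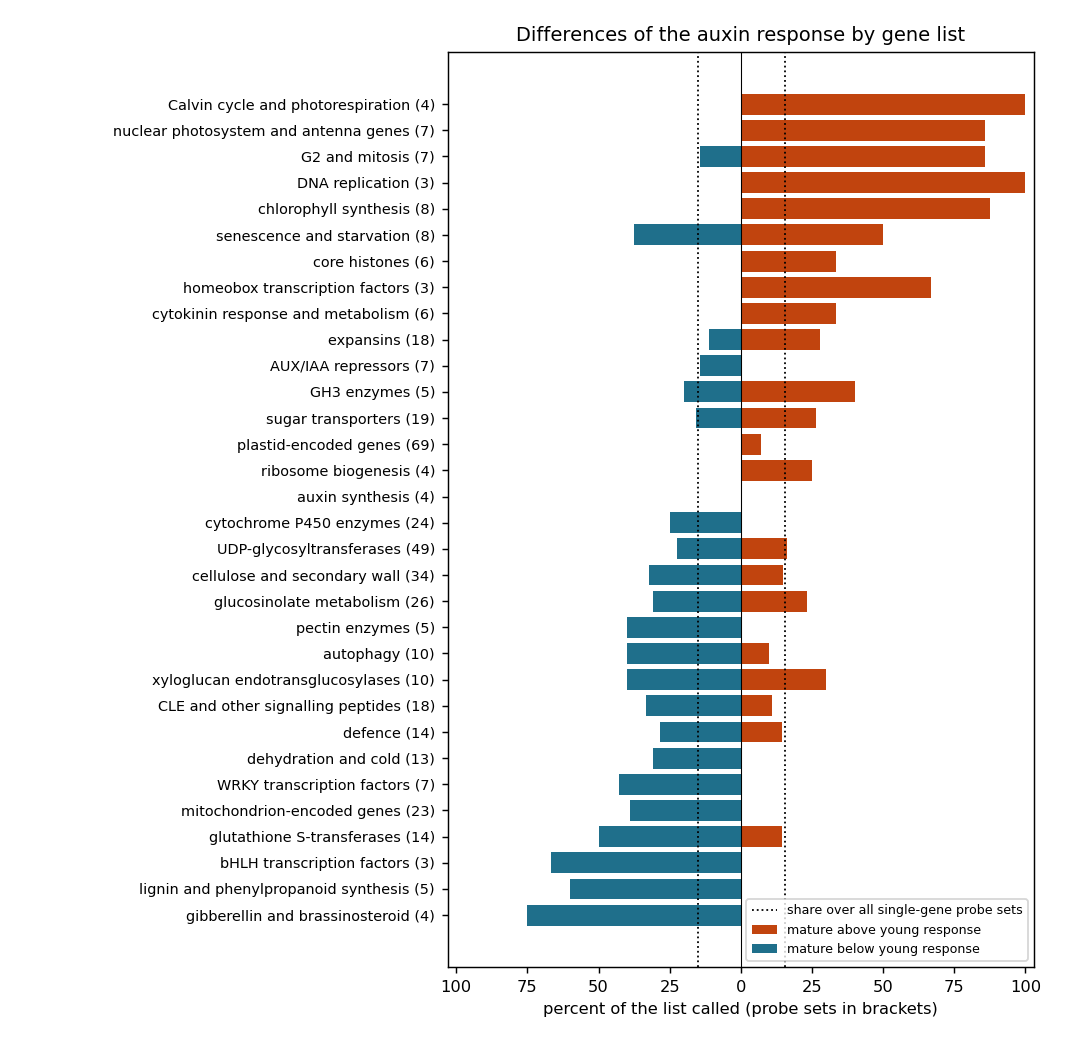
Percent of the probe sets of each gene list with a called difference of the responses, to the right where the mature response was above the young one and to the left where it was below, for 32 lists; brackets give the number of probe sets, and the dotted lines mark 15.6% above and 15.2% below over the 13513 probe sets with 1 gene. Lists are ordered by their median difference, from Calvin cycle genes at the top to gibberellin and brassinosteroid genes at the bottom, and many hold under 10 probe sets.

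The largest differences came mostly from genes without a symbol, which are given by locus. AT4G36430 lay at −4.67, −5.20 and −4.91 and 1.06, 1.90 and 1.19 on the young and mature untreated arrays, and at −0.45, −0.42 and −0.51 and 0.76, 0.48 and 0.42 with auxin. It rose in young hypocotyls (4.47 ± 0.19) and fell in mature ones (−0.83 ± 0.19), the most negative difference of any probe set with 1 gene (−5.30 ± 0.27, 39.3-fold, adjusted p = 3.1e-08). AT3G46490 was its positive counterpart. It lay at 4.47, 4.92 and 4.97 on the young untreated arrays and between −0.51 and 0.07 on the other 9 arrays, so that the young untreated group alone stood out (difference 5.16 ± 0.17, 35.7-fold). AT1G71695 turned the order of the ages, at 2.67, 2.81 and 2.67 and −0.55, −0.44 and −0.30 before and −1.15, −1.23 and −1.24 and 0.33, 0.30 and 0.65 after auxin (difference 4.78 ± 0.14).

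Of the 12 most negative differences, 6 came from the untreated level alone, 5 from both levels and 1 from the level after auxin alone. ARPN, the plantacyanin gene, was the only 1 of the 12 with a symbol. It lay at −4.65, −3.91 and −3.91 and 0.35, 1.04 and 0.35 on the young and mature untreated arrays. After auxin its values were −0.66, −0.36 and −0.01 and 0.20, 0.22 and 0.01. It rose in young hypocotyls (3.82 ± 0.23), and its mature response was −0.44 ± 0.23, not called. The age difference with auxin (0.48 ± 0.23) was called without the 4 arrays. AT5G57785, the member of the 12 whose level after auxin alone differed, rose in young hypocotyls (1.52 ± 0.20) and fell in mature ones (−2.96 ± 0.20). Of the 12 most positive differences, 6 came from the untreated level alone and 6 from both. They ranged from 3.49 for SWEET2 to 5.16 for AT3G46490.

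The class in which the level after auxin alone differed had no called difference before auxin, which does not show equal starting levels. Its most negative members were AT5G57785 (−4.47 ± 0.28), AT5G19890 (−3.97 ± 0.23) and AT5G04120 (−3.36 ± 0.21). AT5G04120 lay at 0.03, −0.14 and 0.09 and −0.03, −0.05 and −0.12 on the young and mature untreated arrays. With auxin it lay at 3.81, 3.37 and 3.01 in young and −0.07, −0.05 and 0.07 in mature hypocotyls, so that it rose in young hypocotyls and its mature response was 0.05 ± 0.15. The most positive members were GH9B8 (2.24 ± 0.47), AT1G71690 (2.15 ± 0.18) and AT1G05577 (2.09 ± 0.27). AT1G05577 rose at both ages, by 1.94 ± 0.19 in young and 4.03 ± 0.19 in mature hypocotyls.

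Opposite responses were called in 734 probe sets, 505 that rose in young and fell in mature hypocotyls and 229 that did the reverse. The median responses were 0.613 and −0.583 in the first and −0.52 and 0.495 in the second, so that most of these were small. With a 2-fold minimum on every change, 40 remained, and without the 4 arrays 336 were called. AT1G12080, of the reverse kind, lay at 1.27, 1.38 and 1.22 and −4.51, −4.75 and −5.40 before and 0.63, 0.96 and 0.90 and −0.87, −0.63 and −0.96 after auxin. It rose by 4.07 ± 0.18 in mature hypocotyls and still lay lower there than in young ones (−1.65 ± 0.18). AT1G22440, of the first kind, rose by 3.74 ± 0.17 and changed by −0.55 ± 0.17 in mature hypocotyls.

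Of the 124 probe sets that the rule for named genes gave, 119 were called for the difference of the responses. Without the 4 arrays of low bioC signal 95 of the 119 were called again, and all 119 kept their sign.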

How the data were processed

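Expression was measured on 12 Affymetrix arrays. Per the submitters' processing notes the deposited values were made with RMA (background correction, normalisation between arrays, summary per probe set), and per the file headers they form 1 series table. The deposited log2 values have a median of 0 in each row, and the base of the log is not stated. Of 22810 rows 64 controls were left out. RMA values carry no read depth, and 3 arrays per group limit the precision.

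The 4 groups follow the labels. A linear model with 4 group means was fitted with limma 3.58.1 (R 4.3.3), with 8 residual degrees of freedom, empirical Bayes spread, two-sided tests, Benjamini-Hochberg adjustment over 22746 probe sets and a threshold of 0.05. The fit was tested on simulated data. Errors are standard errors of a contrast. Centring removes levels, so dim probe sets were not filtered.

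By the array annotation used here, 13513 probe sets have 1 gene (13436 matched in the RefSeq gene table), 503 several and 8730 none listed. Members and gene lists were chosen with earlier results of these data known: 52 lists (32 with 3 or more genes measured) and 15 lists added after the annotation was seen. TRM82, a tRNA modification gene, was taken out of the microtubule list after its value was seen. PDF1B, which is not a defensin gene, stayed in the defence list and in its counts. Lists are described by counts, with no set test. Named genes are the 12 largest differences of each sign, the 3 largest of each class, the 3 largest of opposite responses, up to 2 of each sign per list and 8 markers. Other list members, and TRM28 and APL3, were chosen after their values were seen.

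Same-numbered arrays of the 2 auxin groups had deviations from the group means that correlated at 0.2505, 0.1577 and 0.1224. Other pairs of groups had at least 1 of 3 values under 0.1. The fit has no replicate block. Alternatives were other scalings, thresholds and spread estimates, the block, single arrays left out, and the 4 arrays of low bioC signal left out. No sequence is printed, and probe sets with several or no listed genes are counted but not named.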

Additional observations from a re-analysis of the deposited data

Results flagged for a closer look

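The auxin response differed between the ages in 7962 probe sets by the test of the difference itself. The calls went in opposite directions in 734 of them: 505 rose in young and fell in mature hypocotyls, and 229 fell in young and rose in mature ones. The 25S ribosomal RNA control, which no comparison used, had group means of 2.252 in young and 1.203 in mature hypocotyls with auxin, against −1.936 and −1.913 without it. Groups of 3 arrays are too small for an outlier test.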

How the results depend on the processing

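The difference of the responses was called in 8213 probe sets with the replicate block. The block joined same-numbered arrays across all 4 groups, though only the 2 auxin groups had all 3 correlations above 0.1. It changed no call among the 124 named probe sets. Their calls were also all kept with the robust spread. With array medians set equal 2 were lost, under quantile normalisation 7 were lost and 3 gained, and 24 were lost without the 4 arrays whose bioC signal was low. Single arrays left out lost 2 to 8 each, an adjusted p under 0.01 lost 17 and the 2-fold minimum 32. None reversed under any alternative run. The median difference over all probe sets moved by under 0.1 with either scaling.

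Without the 4 arrays, 4336 differences were called (2276 above, 2060 below), 1854 of them in the class of the untreated level alone, 1338 of both and 167 of neither; by response, 949 rose and 1034 fell at both ages, 1078 responded in young and 926 in mature hypocotyls alone, 336 in opposite directions and 13 at neither age, and the untreated level was called in 5574. With p adjusted over probe sets with 1 gene alone, fewer were tested and the counts were 4064 (2057 above, 2007 below), 2096, 623, 1183 and 162 for the untreated level, the level after auxin, both and neither, and 967, 1034, 884, 773, 370 and 36 for rise at both, fall at both, young alone, mature alone, opposite and neither age. The untreated level was then called in 5484, the level after auxin in 3226, and the young and mature responses in 7334 and 7514.

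With a 2-fold minimum on every comparison, the same counts in the same order were 2853 (1402 and 1451), and 1523, 422, 324 and 584. They were then 305, 513, 984, 714, 40 and 297, and 3056, 1587, 5663 and 5475. With the minimum on the difference of the responses alone, 1390 of the 2853 differed in both levels and 1167 in the untreated level alone. The level after auxin alone differed in 293, and neither level in 3. At an adjusted p under 0.01, 1369 differed in both levels, 1139 rose and 1363 fell at both ages, 437 responded in opposite directions and 48 at neither age. In a fit of the more variable probe sets (SD over the 12 arrays above the median), 130 differed in neither level, 984 responded in young and 826 in mature hypocotyls alone and 11 at neither age.

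With single arrays left out, 6982 to 7856 differences were called (3489 to 3950 above, 3466 to 3906 below). The level classes held 3410 to 4243 (untreated level), 877 to 1187 (level after auxin), 1918 to 2413 (both) and 228 to 325 (neither). The response classes held 1592 to 1807 (rise at both), 1800 to 2022 (fall at both), 1454 to 1746 (young alone), 1241 to 1540 (mature alone), 632 to 747 (opposite) and 46 to 88 (neither age). The untreated level was called in 9084 to 10563, the level after auxin in 4975 to 6351, and the young and mature responses in 12669 to 13561 and 12801 to 13760.

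The cause of the changes without the 4 arrays was not tested, beyond the loss of 4 of the 6 untreated arrays. Centred values give no signal over background, so dim probe sets could not be told from bright ones.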
